A study of Homo sapiens with 18 samples.

Results

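The 10 genes described here encode the proteins that detect DNA in the cytosol, pass the signal on and dispose of the DNA or of the messenger made from it. They are CGAS, TMEM173 (the older symbol of STING1, and the name the table uses for STING), TBK1, IKBKE, TREX1, IFI16, ZBP1, AIM2, SAMHD1 and ENPP1. They were matched by name, and the list was chosen with earlier results of these data known. All 10 were found among the 57500 genes of the count table, with 7 of them passing the filter on low counts that left 16994 genes for testing. Their levels were followed in 18 RNA-seq libraries, 3 in each of 6 groups of IMR90 cells, an established line of human lung fibroblasts. The groups were proliferating cells (Prol), cells made senescent by irradiation (Sen (IR)), irradiated cells treated with the uncoupler CCCP so that they lack mitochondria (Sen (IR) + CCCP), and such depleted cells that also received acetate, mitochondrial DNA (mtDNA) or the combination of both. According to the study's methods, the cells had been engineered so that CCCP triggers removal of their mitochondria, acetate was supplied repeatedly in the medium, and purified mtDNA was delivered with a transfection reagent late after irradiation. No depleted cells given the reagent without mtDNA were analysed here, so mtDNA and its delivery cannot be told apart. P-values rest on the spread between libraries within groups, estimated for each gene over all 6 groups together, also those not compared. The study describes the 3 libraries of a group as independent experiments, and the labels do not give their cultures.

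The pathway works as a relay. cGAS binds double-stranded DNA in the cytosol and makes the cyclic dinucleotide cGAMP, which binds STING on the endoplasmic reticulum. STING then recruits the kinases TBK1 and IKKε (the product of IKBKE), which activate the transcription factor IRF3 and with it type I interferon genes, and NF-κB. IFI16, AIM2 and ZBP1 are further nucleic acid sensors, TREX1 degrades cytosolic DNA, SAMHD1 hydrolyses deoxynucleotides, and ENPP1 hydrolyses extracellular cGAMP. Several of these genes, among them IFI16, AIM2, ZBP1 and SAMHD1, are known targets of interferon, so that a response raises parts of its own machinery. In senescent fibroblasts the relay is known as a driver of the senescence-associated secretory phenotype, with chromatin fragments and mtDNA as its ligands.

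Libraries held between 24624886 and 46224280 counts in genes. Transcripts of the 13 protein-coding mtDNA genes took 2.11% ± 0.468 (SD, n = 3) of counts in Sen (IR) and 0.122% ± 0.0116 in Sen (IR) + CCCP, with no overlap (two-sided exact permutation test over libraries, p = 0.1, which is as small as 3 against 3 can give). All 9 fibroblast markers were detected in every library, with a summed level of 37218 to 40934 CPM (counts scaled to library size) in Prol, 20453 to 25400 in Sen (IR) and 4723 to 6931 in the 4 groups treated with CCCP. The 10 markers of blood, epithelial and endothelial cells together reached 2.09 to 6.62 CPM, with the T cell marker CD3E, the B cell marker CD79A, the leukocyte marker PTPRC and the junction genes CDH1, CDH5 and PECAM1 at 0 in at least some libraries. The others were detected in every library, EPCAM at 0.311 to 3.03 CPM, CD68 at 0.505 to 2.11, CD14 at 0.0719 to 0.900 and VWF at 0.123 to 0.792. The response to interferon was followed as the mean log2 CPM of 12 genes (IFIT1, IFIT2, IFIT3, MX1, MX2, ISG15, OASL, RSAD2, IFI44, IFI44L, HERC5 and CMPK2). It averaged 2.66 in Prol, 4.19 in Sen (IR), 0.632 in Sen (IR) + CCCP, 0.263 with acetate, 7.67 with mtDNA and 5.86 with the combination. Replicate 2 of the combination group stood apart from its partners, with an interferon value of 7.22 against 5.17 and 5.18 and an mtDNA transcript share of 0.237% against 0.0640% and 0.0624%. Where leaving out this library changed a call in a comparison with the combination group, the value without it is given. The other comparisons, whose fit also uses the spread of this library, were not repeated without it.

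Across the groups, the 7 tested members moved in different directions, and the sensor IFI16 and the deoxynucleotide hydrolase SAMHD1 moved the most. Levels below are CPM scaled by TMM, a normalization for library composition, and changes are log2 differences fitted by edgeR to all libraries, with adjusted p-values over all 16994 genes and a threshold of 0.05. In these bulk libraries, fewer cells of a type and less RNA per cell cannot be told apart. Per length and in the authors' TPM, IFI16 ranged from 58.3 ± 1.42 (mean ± SD, n = 3) in Sen (IR) to 405 ± 35.8 with mtDNA. SAMHD1 ranged from 33.5 ± 1.59 in Sen (IR) + CCCP to 194 ± 34.8 with mtDNA, and TBK1 from 46.0 ± 0.901 in Prol to 85.1 ± 4.93 with the combination. STING ranged from 16.3 ± 1.40 TPM with acetate to 41.2 ± 1.81 in Sen (IR) + CCCP. Its upstream enzyme cGAS was lower on the same scale in all 6 groups, at 7.88 ± 0.291 TPM in Sen (IR) to 20.9 ± 1.43 with mtDNA. IKBKE lay between 4.72 ± 0.182 in Sen (IR) + CCCP and 15.8 ± 0.917 in Sen (IR), and ENPP1 between 2.41 ± 0.182 with acetate and 6.40 ± 0.512 in Prol. AIM2, ZBP1 and TREX1 were at or near 0.

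**Figure D1:**
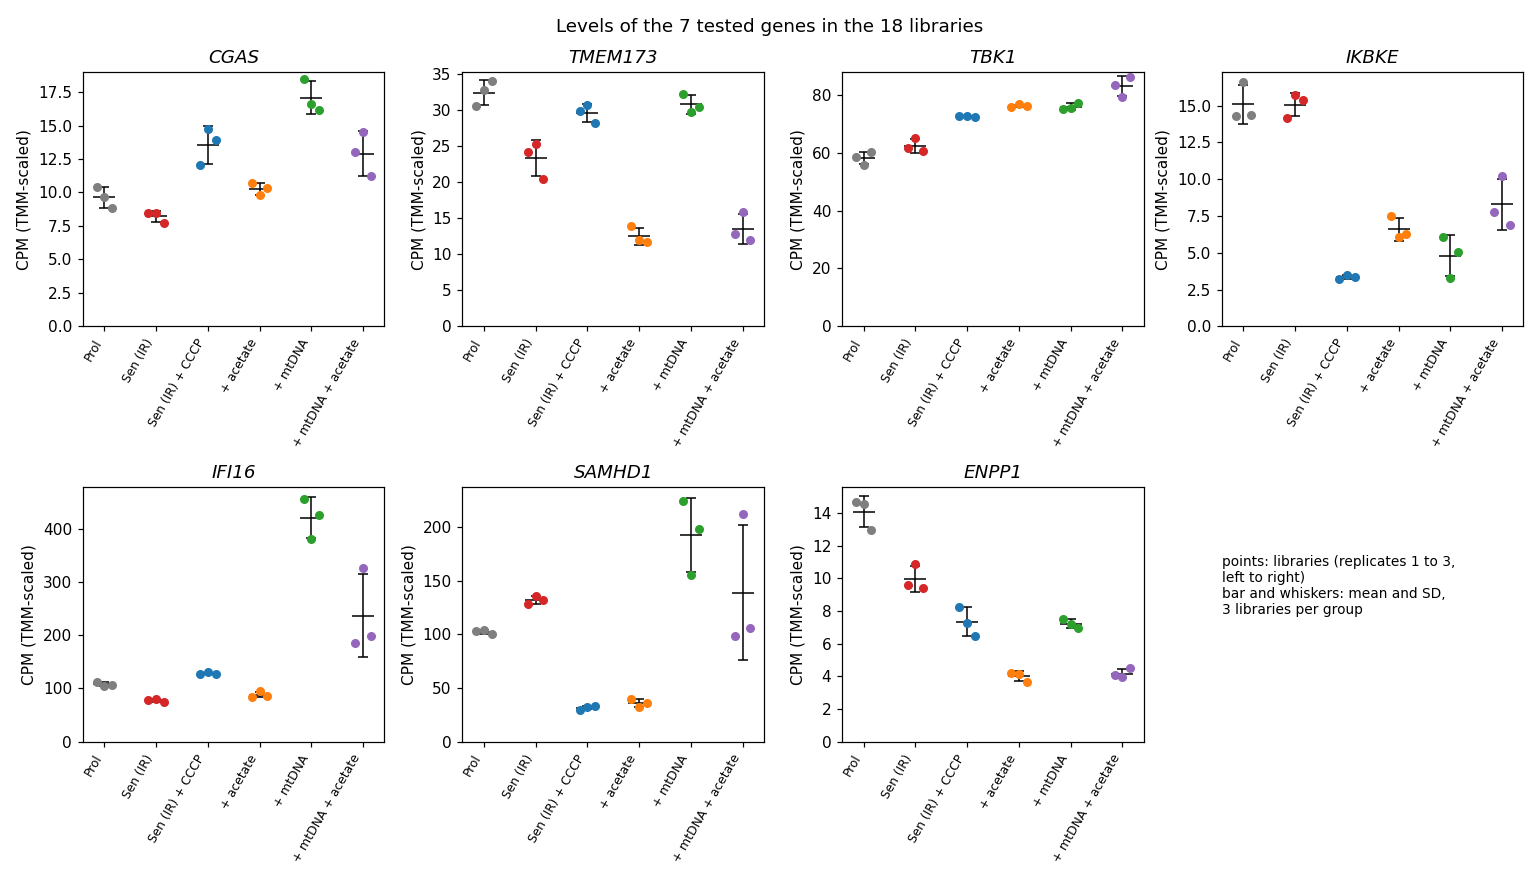
Level of each of the 7 tested genes (y axis, TMM-scaled CPM from 0) in the 18 libraries by group (x axis), with points for libraries and bars and whiskers for the mean and SD of 3 libraries. IFI16 and SAMHD1 are highest with mtDNA, TMEM173 is lowest in both acetate groups, IKBKE is lowest in Sen (IR) + CCCP, and for SAMHD1 and IFI16 replicate 2 of the combination lies above its partners.

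Among the DNA sensors, cGAS (CGAS, chromosome 6:73413515-73452297, minus strand, GRCh38) was measured at 10.4, 9.63 and 8.81 CPM in Prol and at 8.43, 8.48 and 7.75 CPM in Sen (IR). Every senescent library lay below every proliferating library, but the difference of -0.22 ± 0.10 (log2, SE) missed the threshold (adjusted p = 0.0761). In Sen (IR) + CCCP the gene stood at 12.0, 14.8 and 13.9 CPM, all above Sen (IR), and the rise of 0.72 ± 0.10 passed (adjusted p = 1.36e-06). With acetate it was at 10.7, 9.78 and 10.3 CPM, all below the depleted cells without it (-0.40 ± 0.10, adjusted p = 9.86e-04). With mtDNA it was at 18.5, 16.6 and 16.1 CPM, the highest of the 6 groups, and with the combination at 12.99, 14.5 and 11.2 CPM. The rise with mtDNA over Sen (IR) + CCCP was 0.33 ± 0.09 (adjusted p = 0.0162), and over acetate alone the combination was up by 0.33 ± 0.10 (adjusted p = 0.0282). Both of these small rises depended on single libraries and on the processing. The first lost its call without replicate 1 of Sen (IR) + CCCP (0.26, adjusted p = 0.0997) and without replicate 1 of the mtDNA group (0.28, adjusted p = 0.0796), and the second without combination replicate 1 (0.32, adjusted p = 0.0684) or 2 (0.25, adjusted p = 0.131) or acetate replicate 2 (0.30, adjusted p = 0.111) or 3 (0.34, adjusted p = 0.0739). On the TPM scale both were lost (0.25, adjusted p = 0.0629, and 0.27, adjusted p = 0.0681). The second was also lost with library totals (0.27, adjusted p = 0.0549) and with only the compared groups in the fit (0.33, adjusted p = 0.0705). In the order of the means, Sen (IR) + CCCP overlapped the combination, and acetate overlapped Prol. Of the merged CGAS exon bases, 4.31% lie opposite exons of DDX43, itself at 6 to 66 counts per library, and whether the counting used strand is not stated.

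IFI16, a sensor of the PYHIN family that binds DNA in the nucleus and the cytosol, changed more (chromosome 1:158999968-159055155, plus strand). It was measured at 113, 105 and 107 CPM in Prol, 78.4, 79.7 and 74.3 CPM in Sen (IR) and 127, 130 and 128 CPM in Sen (IR) + CCCP. The senescent libraries thus lay below the proliferating ones and the depleted libraries above both, with a fall of 0.48 ± 0.13 on the log2 scale in senescence (adjusted p = 0.00363) and a rise of 0.73 ± 0.13 with CCCP (adjusted p = 4.53e-05). With acetate IFI16 was at 84.7, 94.3 and 86.3 CPM, -0.54 ± 0.13 from the depleted cells (adjusted p = 0.00125). With mtDNA it reached 457, 382 and 426 CPM, 3.28-fold above Sen (IR) + CCCP (1.72 ± 0.13, adjusted p = 4.00e-09). With the combination it was at 185, 327 and 198 CPM, where the 327 belonged to the library that stands apart. All 3 libraries exceeded those with acetate alone (1.42 ± 0.13, adjusted p = 2.11e-07) and fell short of those with mtDNA alone (-0.84 ± 0.13, adjusted p = 8.26e-06). Without replicate 2 of the combination these differences were 1.11 and -1.12. In the order of the means, from mtDNA through the combination, Sen (IR) + CCCP, Prol and acetate to Sen (IR), no neighbours overlapped. Against Sen (IR) + CCCP the combination was higher by 0.88 ± 0.13 (adjusted p = 4.22e-06), and by 0.59 without replicate 2. Of the IFI16 exon bases, 8.03% lie opposite exons of PYDC5.

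The level of IFI16 can be set beside the interferon value of the same library. At an interferon value of 4.16 to 4.23, the Sen (IR) libraries held less IFI16 than any library of Sen (IR) + CCCP, where the interferon value was 0.514 to 0.742. In the 6 libraries that received mtDNA, the library with the highest interferon value, mtDNA replicate 1 at 7.92, also had the most IFI16, and the pair with the lowest, combination replicates 1 and 3, had the least. The part of the interferon response in these levels was not tested.

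**Figure D2:**
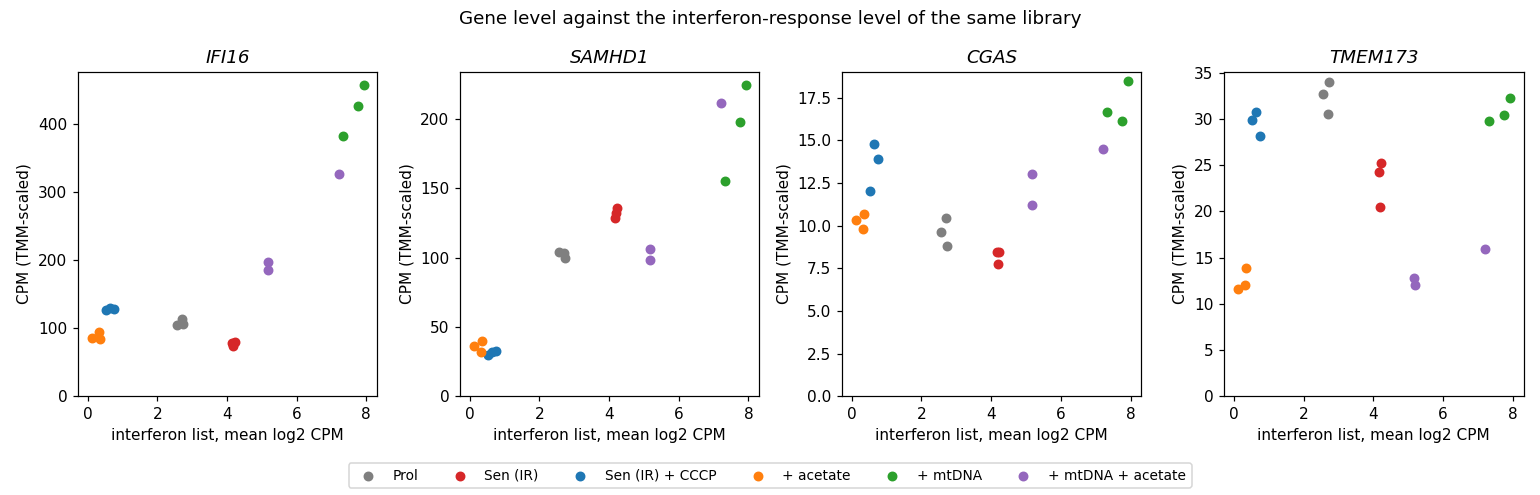
Level of IFI16, SAMHD1, CGAS and TMEM173 (y axes, TMM-scaled CPM from 0) against the mean log2 CPM of the 12 interferon-response genes in the same library (x axes), 18 libraries coloured by group. Replicate 2 of the combination, at 7.22 on the x axis, lies nearest to the mtDNA libraries for IFI16 and SAMHD1 and far below them for TMEM173, and Sen (IR) libraries have more SAMHD1 but less IFI16 than Sen (IR) + CCCP libraries.

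The remaining sensors were hardly detected. AIM2, the PYHIN protein that assembles the inflammasome on cytosolic DNA (chromosome 1:159061599-159187843, minus strand), had 0, 0 and 0 counts in Prol, 0, 0 and 3 in Sen (IR), and 2, 3 and 0 in Sen (IR) + CCCP. With acetate it had 4, 5 and 0 counts, with mtDNA 3, 6 and 5, and with the combination 3, 6 and 1. The mtDNA group was thus the only group in which every library had at least 3 counts, the number taken as the floor, and AIM2 did not pass the filter, so that no difference was tested. ZBP1, a sensor of Z-form nucleic acids that starts necroptosis (chromosome 20:57603846-57620576, minus strand), had 1 and 5 counts in mtDNA replicates 2 and 3 and 0 in the other 16 libraries. At these depths a count of 0 allows a level of up to between 0.0630 and 0.123 CPM, counting error only, so a low level of ZBP1 in the other groups was not detectable.

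STING (TMEM173, chromosome 5:139475533-139482935, minus strand), the adaptor that binds cGAMP, shares no exon bases with another gene. It was measured at 30.5, 32.7 and 34.0 CPM in Prol and 24.2, 25.3 and 20.5 CPM in Sen (IR), without overlap (-0.48 ± 0.09, adjusted p = 8.41e-05). In Sen (IR) + CCCP it was at 29.9, 30.8 and 28.2 CPM, above Sen (IR) in all libraries (0.35 ± 0.09, adjusted p = 0.00156). Acetate gave the lowest STING levels of the series. With acetate the libraries held 13.9, 12.0 and 11.6 CPM, 2.38-fold below the depleted cells (-1.25 ± 0.09, adjusted p = 1.16e-10). With mtDNA they held 32.2, 29.7 and 30.4 CPM, overlapping Sen (IR) + CCCP (0.06 ± 0.09, 95% interval -0.13 to 0.24, adjusted p = 0.729), and with the combination 12.7, 15.9 and 12.0 CPM. The adaptor fell with acetate whether or not mtDNA was given, by 1.19 ± 0.09 on the log2 scale from mtDNA alone to the combination (adjusted p = 4.32e-10), and its level with the combination overlapped that with acetate alone. IFI16 and SAMHD1 were up in the same combination libraries in which STING was low.

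The 3 genes whose pattern over the 6 group means came closest to that of STING were MCM6, a subunit of the replicative helicase, MARCHF4, a ubiquitin ligase whose symbol the table holds as a date, and the centriole gene POC1A, with root mean square differences of 0.0499, 0.0567 and 0.0576 on the log2 scale. Markers of cycling cells also fell with acetate, but did not follow STING in every group. MKI67, the antigen Ki-67, averaged 59.1 CPM in Prol, 15.3 in Sen (IR), 30.4 in Sen (IR) + CCCP, 3.19 with acetate, 26.1 with mtDNA and 4.80 with the combination. Between Prol and Sen (IR) + CCCP, STING differed less, with means of 32.4 and 29.6 CPM. CCNA2, a cyclin of S phase and G2, averaged 43.1 CPM in Sen (IR) + CCCP and 7.79 with acetate, LMNB1, a lamin lost in senescence, 13.3 and 2.91, and the cell cycle inhibitor CDKN1A moved the other way, from 1100 to 1852. For CCNA2, LMNB1 and CDKN1A only this pair of groups is given here. The part of cycling cells in the level of STING was not tested. For cGAS the closest genes were VAC14 (0.0731), AMMECR1 (0.0743) and the AP-1 subunit FOSL1 (0.0780), and for IFI16, at a greater distance, ARHGAP27 (0.186), the mitochondrial exoribonuclease PNPT1 (0.260) and TRIM69 (0.278). For ENPP1 they were the tubulin TUBA1B (0.0481), SSPN (0.0880) and CCDC18 (0.0952), and ZBP1 was too low for the measure.

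The kinases diverged. TBK1 (chromosome 12:64452090-64502114, plus strand), which phosphorylates STING and IRF3, varied least of all members. It stood at 58.6, 55.8 and 60.1 CPM in Prol, 61.5, 65.2 and 60.5 in Sen (IR), and 72.6, 72.8 and 72.2 in Sen (IR) + CCCP. With acetate the values were 75.8, 76.7 and 76.1 CPM, with mtDNA 75.1, 75.3 and 77.3, and with the combination 83.3, 79.3 and 86.2. The mean was thus lowest in Prol and highest with the combination, yet the steps were small. CCCP raised it by 0.22 ± 0.04 (adjusted p = 2.01e-04), and the combination exceeded Sen (IR) + CCCP by 0.19 ± 0.04 (adjusted p = 6.95e-04). That last call was lost with library totals in place of TMM factors (0.02, adjusted p = 0.775) and on the TPM scale (0.06, adjusted p = 0.196), as was the rise of 0.13 ± 0.04 from mtDNA to the combination (adjusted p = 0.0180), which was also lost without combination replicate 3 (0.12, adjusted p = 0.0569). Against acetate alone the combination missed the threshold (0.12, adjusted p = 0.0723) and passed it without combination replicate 2 (0.15, adjusted p = 0.0416).

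IKBKE (chromosome 1:206470476-206496889, plus strand), the inducible relative of TBK1, behaved differently. It stood at 14.3, 16.6 and 14.3 CPM in Prol and 14.2, 15.7 and 15.4 CPM in Sen (IR), which overlapped, with a fitted difference of 0.00 ± 0.13 (log2, 95% interval -0.28 to 0.28). In Sen (IR) + CCCP it was at 3.21, 3.48 and 3.34 CPM, 4.49-fold lower than in Sen (IR) (-2.17 ± 0.16, adjusted p = 5.22e-11). With acetate it was at 7.50, 6.04 and 6.30 CPM, with mtDNA at 6.04, 3.31 and 5.04 CPM, and with the combination at 7.79, 10.2 and 6.86 CPM. Acetate thus raised it in every library (0.97 ± 0.16, adjusted p = 2.82e-05), against the direction of STING, cGAS and IFI16. The combination was also above Sen (IR) + CCCP in all libraries (1.30 ± 0.16, adjusted p = 5.51e-07, and 1.15 without combination replicate 2), and still below Prol and Sen (IR). With mtDNA alone, replicate 2 overlapped the depleted cells, and the difference of 0.52 ± 0.18 passed narrowly (adjusted p = 0.0442). It did not pass when any of the 3 Sen (IR) + CCCP libraries, mtDNA replicate 1 or mtDNA replicate 3 was left out, with adjusted p up to 0.256, nor with library totals (adjusted p = 0.0738).

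On the side of disposal, TREX1, the main cytosolic DNA exonuclease (chromosome 3:48465811-48467645, plus strand), was listed at 0 counts in all 18 libraries. All 1448 of its merged exon bases lie within exons of ATRIP on the same strand in GENCODE v44, and ATRIP, which encodes the partner of the kinase ATR, had 3 to 20 counts per library. Reads shared by overlapping genes are not assigned by the counter's usual setting, so the 0 is not read as absence of TREX1, and no level is given. The part of this overlap in the 0 was not tested.

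SAMHD1 (chromosome 20:36890229-36951893, minus strand), which limits the deoxynucleotide supply and acts at stalled replication forks, had the widest range of fitted changes among members. It stood at 103, 104 and 100.1 CPM in Prol and 128, 136 and 132 CPM in Sen (IR). All senescent libraries were higher, but the difference of 0.37 ± 0.18 missed the threshold (adjusted p = 0.0884). That call depended on the fit, whose SE rests on the spread in all 6 groups. The SD was 2.03 CPM in Prol and 3.62 in Sen (IR). In groups not compared here it was 34.7 with mtDNA and 63.2 with the combination. The difference passed with no filter on low counts (0.34, adjusted p = 2.62e-07) and with only the compared groups in the fit (0.41, adjusted p = 2.03e-05). Library totals also gave a call (0.46, adjusted p = 0.0299). In Sen (IR) + CCCP, SAMHD1 was at 29.7, 31.9 and 32.8 CPM, 4.196-fold lower than in Sen (IR) (-2.07 ± 0.19, adjusted p = 3.34e-09). With acetate it was at 39.7, 32.0 and 35.9 CPM, which overlapped the depleted cells (0.19 ± 0.19, 95% interval -0.22 to 0.59, adjusted p = 0.434). The difference passed with no filter on low counts (0.19, adjusted p = 0.0176) and with only the compared groups in the fit (0.17, adjusted p = 0.0262). With mtDNA it was at 224, 155 and 198 CPM, 6.12-fold above Sen (IR) + CCCP (2.61 ± 0.19, adjusted p = 2.71e-09), and above Sen (IR) in all libraries. With the combination it was at 98.5, 212 and 106 CPM, where replicate 2 again was the high library. The combination exceeded acetate alone in every library (1.95 ± 0.19, adjusted p = 4.74e-07), by 1.52 without replicate 2, and Sen (IR) + CCCP by 2.14 ± 0.19 (adjusted p = 3.18e-09), by 1.71 without it. Against mtDNA alone the libraries overlapped, and the difference of -0.48 ± 0.18 (adjusted p = 0.0269) was -0.90 without combination replicate 2 and -0.26 without combination replicate 1 (adjusted p = 0.203). It was also lost without mtDNA replicate 1 (-0.34, adjusted p = 0.151), mtDNA replicate 3 (-0.44, adjusted p = 0.0729) or combination replicate 3 (-0.30, adjusted p = 0.174). The rise of 0.54 ± 0.18 over Sen (IR) with mtDNA (adjusted p = 0.0105) was lost without mtDNA replicate 1 (0.43, adjusted p = 0.0561) and with the Wald test of DESeq2 (0.53, adjusted p = 0.0572). SAMHD1 shares 9.86% of its exon bases with TLDC2 on the opposite strand, which had 7 to 69 counts per library.

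ENPP1 (chromosome 6:131808016-131895155, plus strand), the hydrolase of extracellular cGAMP, was highest in Prol at 14.7, 14.6 and 12.99 CPM and lower in Sen (IR) at 9.60, 10.9 and 9.40 CPM (-0.50 ± 0.09, adjusted p = 8.87e-05). In Sen (IR) + CCCP it was at 8.25, 7.30 and 6.46 CPM, with acetate at 4.18, 4.16 and 3.65, with mtDNA at 7.48, 7.22 and 6.94, and with the combination at 4.09, 3.93 and 4.48. Both groups with acetate lay below all others. The difference with acetate was -0.89 ± 0.10 (adjusted p = 2.08e-07), and in cells that also received mtDNA -0.79 ± 0.11 (adjusted p = 2.29e-06). With mtDNA alone it overlapped Sen (IR) + CCCP (-0.03 ± 0.10, 95% interval -0.24 to 0.18, adjusted p = 0.883). The fall with CCCP (-0.43 ± 0.10, adjusted p = 5.06e-04) depended on the scaling, since it was -0.17 (adjusted p = 0.122) with library totals and -0.01 (adjusted p = 0.905) on the TPM scale. The lower level with mtDNA than in Sen (IR) (-0.46, adjusted p = 2.97e-04) was likewise lost on the TPM scale (-0.09, adjusted p = 0.414).

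**Figure D3:**
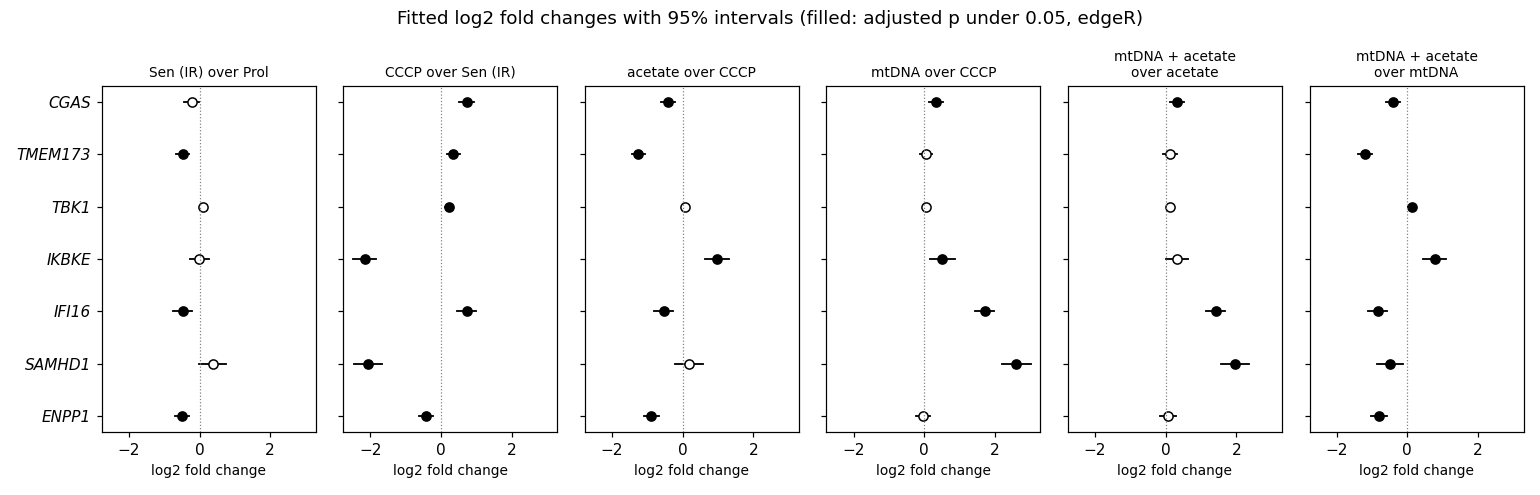
Fitted log2 fold change (x axis) of the 7 tested genes (rows) in 6 comparisons (panels), with 95% intervals as lines, and filled points where the adjusted p from edgeR was under 0.05. The points of IFI16 and SAMHD1 lie farthest right with mtDNA, at 1.72 and 2.61, IKBKE and SAMHD1 farthest left with CCCP, at -2.17 and -2.07, and TMEM173 farthest left with acetate.

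Each comparison called many genes, and the calls among members are given beside the share of all genes tested. In senescence 3 of 7 fell (STING, IFI16 and ENPP1) and the other 4 did not pass, where 26.7% of all genes tested rose and 29.9% fell. With CCCP 4 rose (cGAS, STING, TBK1 and IFI16) and 3 fell (IKBKE, SAMHD1 and ENPP1), beside 34.0% and 31.3% of all genes. With library totals, the median of all genes in that comparison moved from 0.03 to 0.29, and on the TPM scale to 0.35. Acetate raised 1 (IKBKE) and lowered 4 (cGAS, STING, IFI16 and ENPP1), beside 28.8% and 28.3%. With mtDNA 4 of 7 rose (cGAS, IKBKE, IFI16 and SAMHD1) and the other 3 did not pass, beside 10.7% and 7.40% of all genes, and the member median of 0.33 stood beside 0.00 for all genes tested. Of these 4, cGAS and IKBKE were lost without replicate 1 of Sen (IR) + CCCP or without mtDNA replicate 1, which left 2.

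With acetate present, mtDNA raised 3 (cGAS, IFI16 and SAMHD1) and the other 4 did not pass, beside 6.57% and 6.0%. The combination against Sen (IR) + CCCP had 4 higher (TBK1, IKBKE, IFI16 and SAMHD1) and 2 lower (STING and ENPP1), beside 30.3% and 31.4%. Against mtDNA alone it had 2 higher (TBK1 and IKBKE) and 5 lower (cGAS, STING, IFI16, SAMHD1 and ENPP1), beside 27.4% and 29.9%. Depleted cells given mtDNA differed from Sen (IR) cells in all 7, with 5 higher (cGAS, STING, TBK1, IFI16 and SAMHD1) and 2 lower (IKBKE and ENPP1), beside 35.0% and 32.5%. IFI16 was 5.44-fold higher in that comparison (2.44 ± 0.14, adjusted p = 6.11e-13) and IKBKE 3.13-fold lower (-1.65 ± 0.15, adjusted p = 2.71e-09). These comparisons share libraries with each other, and a count near the share of all genes describes no property of the members. The balance of calls over all genes depended on the scaling. The share of calls that were higher was 47.1% in senescence, 52.1% with CCCP, 50.5% with acetate and 59.1% with mtDNA, and with library totals 58.2%, 70.6%, 37.1% and 35.7%. In the same order of scalings it was 52.2% and 29.1% for the combination against acetate (64.7% with DESeq2 size factors), 49.1% and 32.3% against Sen (IR) + CCCP, 47.8% and 36.2% against mtDNA, and 51.9% and 65.2% for mtDNA against Sen (IR). No member past the threshold changed sign under either scaling.

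Whether the change with mtDNA differed when acetate was present was tested as an interaction, the log2 difference of combination and acetate less that of mtDNA and Sen (IR) + CCCP. By edgeR 0 of 7 members passed, and 1 of 7 had an unadjusted p under 0.05, SAMHD1 (-0.66 ± 0.26, unadjusted p = 0.0201 and adjusted p = 0.318 by edgeR). By DESeq2 0 passed as well, and by edgeR with no filter on low counts 2 passed, IFI16 and SAMHD1. Over all genes 0.0765% were higher and 0.583% lower in this test. For IFI16 the value was -0.30 ± 0.18 (95% interval -0.68 to 0.08), for STING 0.06 ± 0.13 and for cGAS 0.00 ± 0.14. The outcome turned on the library that stands apart. Without replicate 2 of the combination, the rise with mtDNA was smaller when acetate was present for IFI16 (-0.60, adjusted p = 4.12e-05) and SAMHD1 (-1.09, adjusted p = 4.80e-06). Over all genes, 403 passed in place of 112. That library was singled out partly by its high interferon value, and both genes are known interferon targets. The p-values without it take no account of that choice, so they cannot decide whether the change differed.

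Regulatory sequence upstream of the members that moved most with mtDNA is shown here because both are known interferon targets, with that of AIM2 as the only window of a member holding the interferon motif searched for. Windows from 250 bases before to 50 after the start were taken from RefSeq (GRCh38.p14), where 7 of the 10 symbols had an entry (IFI16, with 2 starts, AIM2, IKBKE, TREX1, ENPP1, TBK1 and SAMHD1). They were searched on both strands for the core of the interferon-stimulated response element (GAAANNGAAA), the gamma-activated site (TTCNNNGAA), a kappa-B core (GGGNNNNNCC) and an E2F core (TTTNNCGC). The 250 bases before the start are printed in lower case with matches in capitals, at chr1:159008741-159008990 and chr1:159009657-159009906 (plus strand) for IFI16, chr20:36951709-36951958 (minus strand) for SAMHD1 and chr1:159076767-159077016 (minus strand) for AIM2.
IFI16 window 1: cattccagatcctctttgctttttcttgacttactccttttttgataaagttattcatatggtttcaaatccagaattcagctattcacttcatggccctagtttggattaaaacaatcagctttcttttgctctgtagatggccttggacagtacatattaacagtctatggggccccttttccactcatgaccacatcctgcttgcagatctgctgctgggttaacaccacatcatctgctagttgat
IFI16 window 2: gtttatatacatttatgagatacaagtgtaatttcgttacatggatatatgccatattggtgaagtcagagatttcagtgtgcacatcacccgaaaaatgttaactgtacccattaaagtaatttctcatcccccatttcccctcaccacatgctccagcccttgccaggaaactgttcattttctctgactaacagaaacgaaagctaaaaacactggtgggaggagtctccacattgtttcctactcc
SAMHD1: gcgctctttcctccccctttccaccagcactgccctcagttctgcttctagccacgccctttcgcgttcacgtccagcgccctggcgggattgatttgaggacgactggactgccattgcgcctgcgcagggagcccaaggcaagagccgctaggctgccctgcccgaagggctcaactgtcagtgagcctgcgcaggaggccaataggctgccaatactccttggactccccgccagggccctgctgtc
AIM2: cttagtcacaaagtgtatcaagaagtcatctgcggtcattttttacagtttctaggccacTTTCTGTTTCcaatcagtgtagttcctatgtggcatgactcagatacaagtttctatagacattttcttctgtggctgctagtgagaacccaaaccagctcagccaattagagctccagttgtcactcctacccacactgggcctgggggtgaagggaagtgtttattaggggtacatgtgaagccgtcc

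None of the 4 motifs as spelled was found in either IFI16 window, nor in those of SAMHD1 and ENPP1. AIM2 held the interferon element at position -190, on the strand opposite to the gene, a motif present in 3.57% of the 35116 promoters of the table. IKBKE, TBK1 and TREX1 each held the kappa-B core, which 58.7% of promoters hold. The gamma-activated site and the E2F core, found in 7.66% and 6.89% of promoters, were in no member's window. The IFI16 and AIM2 windows lie inside the spans of these genes given above, so any start nearer the outer end of those spans was not searched. A match is a description of these letters in this window and shows no binding.

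The wider pathway was described with 56 genes that act with the members, all found in the table, of which 46 passed the filter. With mtDNA 11 rose and 3 fell against Sen (IR) + CCCP (median 0.08, all genes 0.00), beside 10.7% and 7.40% of all genes tested. The largest rise was that of TRIM14, an adaptor that stabilises cGAS, from 15.8 ± 1.64 to 117 ± 16.3 CPM (SD, n = 3, 2.89 ± 0.22, adjusted p = 4.17e-09). MLKL, the executor of necroptosis downstream of ZBP1, rose from 12.8 ± 0.487 to 30.7 ± 1.34 CPM (1.26 ± 0.10), and ADAR, the RNA editor that restrains ZBP1, from 288 ± 9.42 to 627 ± 47.5 CPM (1.12 ± 0.10). By role, 3 of 4 tested partners of ZBP1 and 2 of 4 tested AIM2 inflammasome genes rose, beside the same 10.7% of all genes. ZBP1 and AIM2 themselves were hardly detected and not tested. RIPK3 and IL18, listed in these roles, did not pass the filter either. Of 8 tested DNA sensors 2 fell, beside 7.40%, and the other 6 did not pass. The falls were small, in the nuclease subunit RNASEH2C (-0.34 ± 0.09), the break sensor MRE11 (-0.27 ± 0.06) and the kinase PRKDC (-0.21 ± 0.07), and the last passed narrowly (adjusted p = 0.0366) and was lost without any of 5 single libraries. That of RNASEH2C was lost without replicate 1 of Sen (IR) + CCCP (-0.24, adjusted p = 0.0926).

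With acetate present, 6 of 46 pathway genes rose with mtDNA and 3 fell, beside 6.57% and 6.0% of all genes, so that the count of falls was near that share. TRIM14 (2.10 ± 0.22), ADAR (0.97 ± 0.10) and MLKL (0.74 ± 0.11) led the rises, and without combination replicate 2 these were 1.58, 0.76 and 0.55. RNASEH2C (-0.51 ± 0.09) led the falls, followed by IRF3, the transcription factor downstream of TBK1 (-0.30 ± 0.07), and MRE11 (-0.20 ± 0.06), whose call was lost without any of 5 single libraries, among them combination replicate 2 (-0.20, adjusted p = 0.0576). TRIM14 with the combination ranged from 52.5 to 127 CPM. The interaction passed for 0 of 46 by edgeR (6 at an unadjusted p under 0.05) and 1 by DESeq2, and by edgeR for 4 without combination replicate 2. By edgeR it also passed for 4 pathway genes with no filter on low counts (1 higher and 3 lower). With only the groups compared, and without mtDNA replicate 2, it passed for 1 each.

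**Figure D4:**
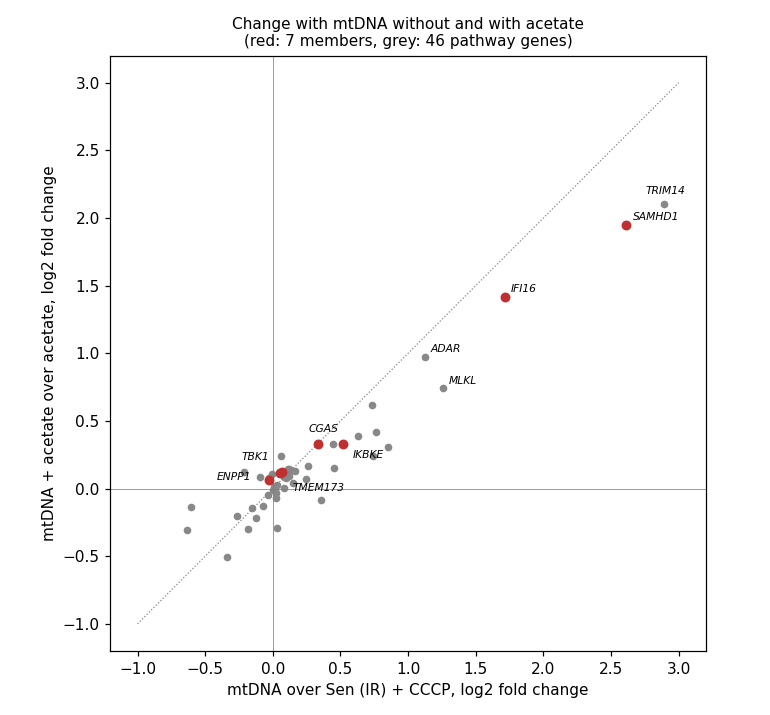
Log2 fold change with mtDNA without acetate (x axis, against Sen (IR) + CCCP) and with acetate (y axis, against Sen (IR) + CCCP + acetate) for the 7 tested members (red) and 46 pathway genes (grey), which share no libraries between the axes, with the dotted line of equality. SAMHD1, IFI16, TRIM14, MLKL and ADAR lie in the upper right and below the line, and most other genes lie near 0.

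With acetate 13 of 46 pathway genes were higher and 18 lower than in Sen (IR) + CCCP (median -0.01, all genes 0.01), beside 28.8% and 28.3% of all genes. Among the 8 tested DNA sensors outside the member list, a role singled out after its values were seen, 8 were lower, beside the same 28.3%, from DDX41 (-0.45, adjusted p = 4.84e-07) to MRE11 (-0.14, adjusted p = 0.0450). The largest rise was that of IL1B, the inflammasome's cytokine substrate, from 5.29 ± 0.590 to 56.1 ± 8.65 CPM (3.41 ± 0.11, adjusted p = 4.58e-16). The lysosomal exonuclease PLD3 (1.03 ± 0.09) and RHBDF2, a cofactor of STING trafficking (0.83 ± 0.19), followed. The falls were led by RNASEH2A, the catalytic subunit of RNase H2 (-1.40 ± 0.13), MLKL (-0.67 ± 0.11) and BANF1, which keeps cGAS off nuclear DNA (-0.58 ± 0.05). In the presence of mtDNA, acetate gave 12 higher and 17 lower pathway genes, beside 27.4% and 29.9% of all genes, led by IL1B (3.32 ± 0.11), NLRC3, an inhibitor of STING (0.99 ± 0.33), and PLD3 (0.99 ± 0.09) among the rises and RNASEH2A (-1.51 ± 0.14), MLKL (-1.18 ± 0.10) and BANF1 (-0.64 ± 0.05) among the falls. NLRC3 was low, at a mean of 0.474 CPM with mtDNA and 0.939 with the combination, and its call was lost without mtDNA replicate 2 (0.85, adjusted p = 0.0590).

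In senescence 12 of 46 pathway genes rose and 10 fell, near the 26.7% and 29.9% of all genes. IL1B rose the most (2.93 ± 0.12), and STIM1, which retains STING at the endoplasmic reticulum, was also among the rises (0.71 ± 0.06). The inflammasome adaptor PYCARD (-1.39 ± 0.32), the pore former GSDMD (-1.08 ± 0.15) and PRKDC (-0.84 ± 0.07) fell the most. Of 10 regulators of STING, 6 rose, beside the same 26.7%, and the other 4 did not pass. With CCCP the pathway had 9 higher and 19 lower genes, beside 34.0% and 31.3% of all genes. Of the same 10 regulators 7 fell, beside the same 31.3%, with a median of -0.27. The median of all genes in this comparison was 0.03 with TMM factors and 0.29 with library totals, and roles were not recounted on that scaling. The extremes of the pathway were RHBDF2 (-2.76 ± 0.17), IL1B (-2.56 ± 0.11) and the nuclease DNASE1L1 (-1.74 ± 0.10) at the bottom and PRKDC (0.85 ± 0.07), RNASEH2B (0.66 ± 0.08) and RAD50 (0.63 ± 0.04) at the top.

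For the combination against Sen (IR) + CCCP, 17 pathway genes were higher and 17 lower, beside 30.3% and 31.4% of all genes, with IL1B (3.58 ± 0.11), TRIM14 (2.30 ± 0.22, and 1.79 without combination replicate 2) and RHBDF2 (1.24 ± 0.19) highest and RNASEH2A (-1.36 ± 0.14), the channel subunit LRRC8E (-0.996 ± 0.402) and BANF1 (-0.62 ± 0.05) lowest. LRRC8E overlapped between the groups and was lost without any of 4 single libraries. For mtDNA against Sen (IR), 15 were higher and 18 lower, beside 35.0% and 32.5%, with TRIM14 (1.31 ± 0.20), MLKL (1.12 ± 0.10) and CASP1, the inflammasome protease (0.99 ± 0.11), highest and IL1B (-2.30 ± 0.11), RHBDF2 (-1.999 ± 0.162) and DNASE1L1 (-1.83 ± 0.10) lowest. The 10 pathway genes that did not pass the filter included the sensors PYHIN1, MNDA and TLR9 and the kinase RIPK3, the partner of ZBP1.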

How the data were processed

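RNA-seq of polyadenylated RNA was analysed from 18 libraries, 3 in each of 6 groups mapped by their labels. The authors deposited raw counts per gene, made by trimming in Trimmomatic 0.36, alignment to GRCh38 in STAR 2.5.2b and counting of exonic, uniquely mapped reads in featureCounts (Subread 1.5.2). The authors also deposited TPM, which divide by gene length and library total. Per the study's methods, the annotation was that of Ensembl and stranded libraries were counted by strand. Whether these libraries were stranded, and the annotation release, are not given in the sources used here, and 0 columns were left unused.

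In R 4.3.3, edgeR 4.0.16 fitted 1 quasi-likelihood model of 6 group means to the counts, with TMM factors, filterByExpr by group and Benjamini-Hochberg adjustment over 16994 genes (threshold 0.05), for 9 comparisons. Standard errors were taken from the F statistic. CPM use the TMM-scaled library sizes, and log2 CPM a prior count of 1. Exon overlaps were taken from GENCODE v44 on GRCh38, matched by gene identifier. Intervals and floors (3 counts) cover counting error or the spread between libraries only. The procedure was tested on simulated counts.

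The members and gene lists were chosen with earlier results of these data known. All 10 members are named, with the 3 pathway genes that rose and the 3 that fell most in each comparison among those past the threshold, and the 3 genes nearest in pattern to CGAS, TMEM173, IFI16 and ENPP1 over 6 group means. Pathway genes named beside their role count and the 8 sensors lower with acetate were named after their values were seen. Alternatives were DESeq2 1.42.0 (size factors or Wald test), no filter, a fit without the other groups, a block for replicate number and each library of the compared groups left out. Library totals and limma 3.58.1 on log2(TPM + 1) were added after seeing the data.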

Additional observations from a re-analysis of the deposited data

How the results depend on the processing

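Of 861 alternative values of single members, 778 kept direction and side of the threshold, 35 lost a call, 19 gained one and 29 changed sign, 0 of them where the main value had passed. Of 624 alternative values of the named pathway genes, 602 kept both and 22 lost a call. The causes were not tested.

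The number of members that passed moved by over 1.5 times in 3 comparisons. For Sen (IR) against Prol it went from 3 to 5 with only the groups compared and to 5 with library totals, where TBK1 and SAMHD1 were added, and each library left out gave 3 to 4. For mtDNA against Sen (IR) + CCCP it went from 4 to 2 with limma on log2(TPM + 1), and leaving out each library gave 2 to 4. For the interaction it went from 0 to 2 with no filter on low counts, and leaving out each library gave 0 to 2. Over all genes, the interaction had 112 calls (11.6% of them higher, 22.9% on the TPM scale), 413 with no filter (31% higher), 284 with the Wald test of DESeq2 (51.8% higher) and 55 to 403 with each library left out. For the combination against acetate alone, 2136 calls became 1241 without acetate replicate 2 and 1296 without acetate replicate 3.

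Values that changed sign were near 0. IKBKE in Sen (IR) against Prol was 0.00693 with DESeq2 size factors, 0.00371 with its Wald test, 0.0390 with only the groups compared, 0.0926 with library totals, 0.0765 on the TPM scale and -0.0635 to 0.0650 with each library left out. With library totals and on the TPM scale, TBK1 was -0.0511 and -0.0274 for acetate against Sen (IR) + CCCP and -0.00271 and -0.00777 for mtDNA, and TMEM173 was -0.0132 and -0.0159 for mtDNA. With each library left out, ENPP1 with mtDNA ran from -0.0965 to 0.0700, CGAS with the combination against Sen (IR) + CCCP from -0.146 to 0.0409, and TMEM173 for the combination against acetate from -0.00204 to 0.195. That CGAS difference depended on the scaling, since it was -0.253 with library totals and passed (adjusted p = 0.0199). For the interaction, CGAS was 0.0259 with DESeq2 size factors, 0.0274 with its Wald test, 0.00112 with only the 4 CCCP groups, 0.00789 with library totals, 0.0189 on the TPM scale and -0.0848 to 0.0801 with each library left out, and in the same way TMEM173 ran from -0.0552 to 0.130 and ENPP1 from -0.00143 to 0.166.

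No pairing of the samples by replicate number was seen, which does not exclude experiments shared by same-numbered libraries. Correlations of deviations between same-numbered libraries ran from -0.08 to 0.08 over 45 pairs of libraries, and 0 of 15 pairs of groups had them all over 0.1. The replicate block left 3 of 4 calls for mtDNA against Sen (IR) + CCCP, since IKBKE then had an adjusted p of 0.0505, and changed no other count of members. With library totals the median of all genes moved to 0.20 for mtDNA against Sen (IR), -0.21 for the combination against Sen (IR) + CCCP, -0.12 for acetate against it and -0.13 for the combination against mtDNA. AIM2 and ZBP1 did not pass the filter on low counts and were not tested.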
